A study of Cervus nippon with 40 samples.

Results

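The heart of Sika Deer (Cervus nippon) was described here by its 4 small RNA libraries, 1 at each of 4 development stages, out of 40 libraries of 10 organs. The 4 libraries were those whose tissue label is heart, and they were set against the mean of the other 9 organs (adrenal, antler, brain, kidney, liver, lung, skeletal muscle, spleen and testes; 36 libraries) over the names of known cattle miRNAs (prefix bta-). All deer were male and of the Shuangyang breed. The stages were juvenile (1 year old), adolescence (3 years old), adult (5 years old) and aged (10 years old). Each library held pooled RNA of 3 deer, the same 3 deer gave all organs of a stage, and different deer were used at each stage, 12 in all. With 1 heart library per stage, the spread between deer of a stage was not measured, and a p-value below measures the spread between these pools only.

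miRNAs are short RNAs that guide a protein complex to matching sites in messenger RNAs and lower the output of those messages. Heart muscle cells make a small set of them at very high level. miR-1 and miR-133a are cut from the same precursor transcripts in heart and skeletal muscle, where they act in muscle differentiation and electrical conduction. miR-208a, miR-208b and miR-499 lie in introns of myosin heavy chain genes and are made together with their host genes, miR-208a with the fast alpha form of heart and miR-208b with the slow beta form that is also found in slow skeletal muscle. miR-206 is the form of miR-1 that is typical of skeletal muscle.

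Expression is given as reads per 1000000 miRNA reads of a library (RPM). Because miR-1 took a large share of the heart reads, it is also given as reads per 1000000 of all miRNA reads other than miR-1, called RPM without miR-1, on which miR-1 itself can exceed that total. The heart libraries held 2582105, 2559700, 1520854 and 905158 miRNA reads from juvenile to aged, and 1090577, 473774, 1039646 and 768217 without miR-1, in a series that ran from 41866 to 7759033. Of the 336 known names, 196 had a read in heart, 107 had one in each heart library and 126 passed the minimum of 10 reads in at least 4 of the 40 libraries. The adolescence heart stood apart from the other 3. It had the largest share of miR-1, and of the 75 names with at least 100 heart reads it held the highest value for 30 and the lowest for 27, so counts are also given without it. Across the 126 tested names, the mean correlation (Pearson's r of log2 RPM without miR-1, across miRNAs) of a heart library was 0.926 to 0.957 with the other heart libraries, 0.869 to 0.898 with muscle and 0.766 to 0.795 with the remaining organs. The nearest library of each heart library was another heart library.

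The heart profile was dominated by a few names. miR-1 took 57.8, 81.5, 31.6 and 15.1% of miRNA reads in juvenile, adolescence, adult and aged heart. Its share was above 5.21%, the highest share in the 32 libraries of the other 8 organs, in all 4 heart libraries, and below the 91.1 to 92.8% of skeletal muscle. miR-378, which comes from an intron of the energy metabolism regulator PPARGC1B, took 14.9, 3.22, 15.3 and 20.3% of all miRNA reads and 35.3, 17.4, 22.4 and 23.9% of those without miR-1. miR-133a took 8.40, 2.92, 18.5 and 25.2% of all and 19.9, 15.8, 27.0 and 29.8% without miR-1. Outside miR-1, between 2 and 4 names made up 50% of the reads of a heart library and 8 to 12 made up 90%. Names that carry the same reads, such as let-7b and miR-3596 or miR-26a and miR-26c, were each counted in these numbers. miR-30c, let-7b, miR-26a, miR-486 and miR-145 were the next most abundant by their mean over the 4 libraries. Leaving miR-1 out raised every other value by 2.37, 5.40, 1.46 and 1.18 times in the 4 stages, so a comparison between stages depends on the total that is used.

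**Figure D1:**
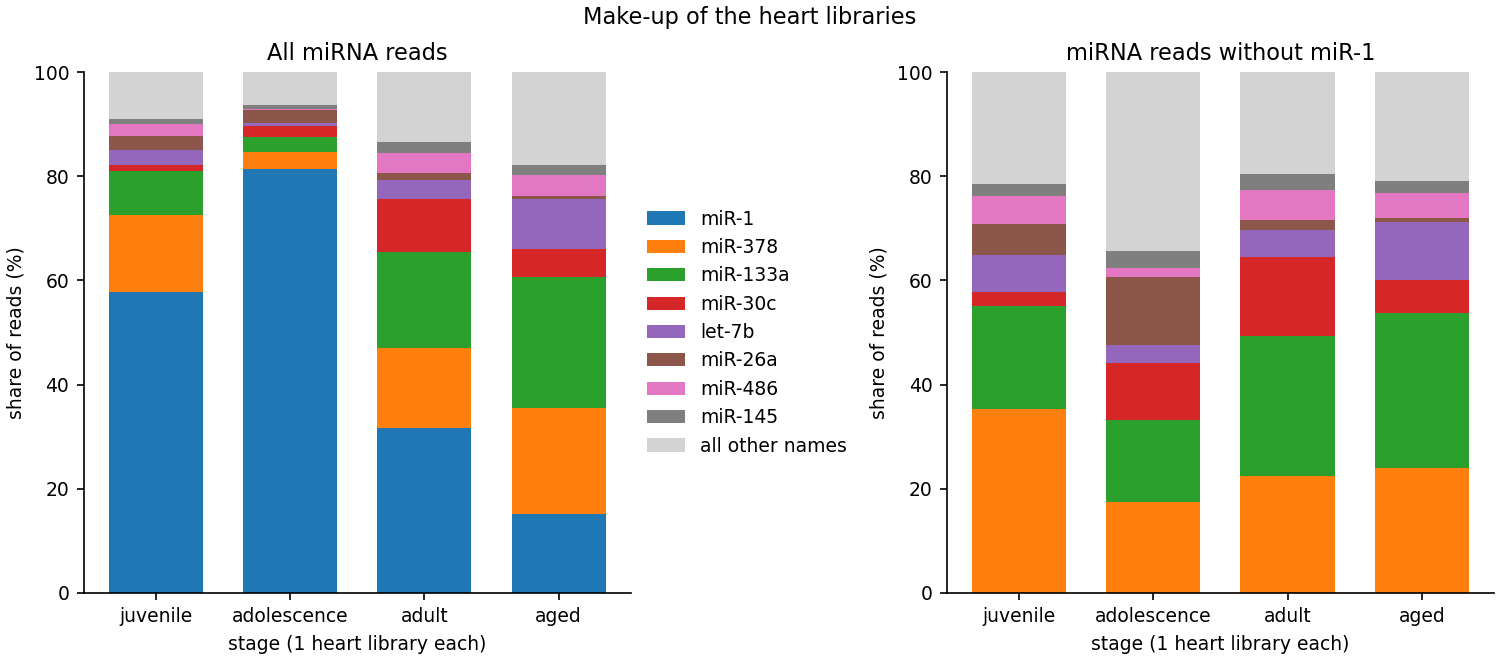
Share of reads (%) of the most abundant miRNAs in the 4 heart libraries, of all miRNA reads (left) and of miRNA reads without miR-1 (right). Each bar is 1 library and has no error bar, and miR-1 takes from 15.1% (aged) to 81.5% (adolescence) of the bars on the left.

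The heart label was checked on miR-208a, miR-208b and miR-133a. miR-208a had 16, 14, 3 and 1 reads in juvenile, adolescence, adult and aged heart and none in the other 36 libraries. It was the only name with at least 10 reads in heart and none elsewhere, out of 9 names read in heart alone. Its 34 heart reads were at least 71.0-fold above the other organs, taking 3 reads over the 36 libraries as the limit that 0 reads allow. Without the adolescence heart the value was 48.6-fold, and without the juvenile heart 55.55-fold. Such limits cover the counting error of the 0 reads only, not that of the heart reads. The intervals below cover counting error only. miR-208a was too rare to be tested.

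miR-208b had 47, 200, 63 and 30 heart reads, or 43.1, 422, 60.6 and 39.0 RPM without miR-1 (18.2, 78.1, 41.4 and 33.1 RPM). Outside heart it was read in skeletal muscle alone, at 8.01, 22.3, 10.8 and 37.3 RPM without miR-1, so all 4 heart libraries were above all other libraries. The aged heart and the aged muscle lay next to each other. Heart was at least 640.2-fold above the 32 libraries of the other 8 organs, and the mean of heart was 7.21 times that of muscle. The adolescence heart held most of these reads, and without it the values were at least 307-fold and 2.43 times. miR-499 had 0, 3, 2 and 0 reads, all in heart. miR-206 had none in heart and 15, 10, 6 and 6 in muscle, which was at least 20.1-fold more in muscle by the same limit.

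miR-133a stood at 198784, 157896, 270094 and 297502 RPM without miR-1 in heart. The 32 libraries outside heart and muscle ran from 80.5 to 7243 with a median of 833, all below heart. Muscle held 110672, 290210, 269845 and 305788 and overlapped heart. In bulk tissue, fewer cells of a type and less RNA per cell cannot be told apart.

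**Figure D2:**
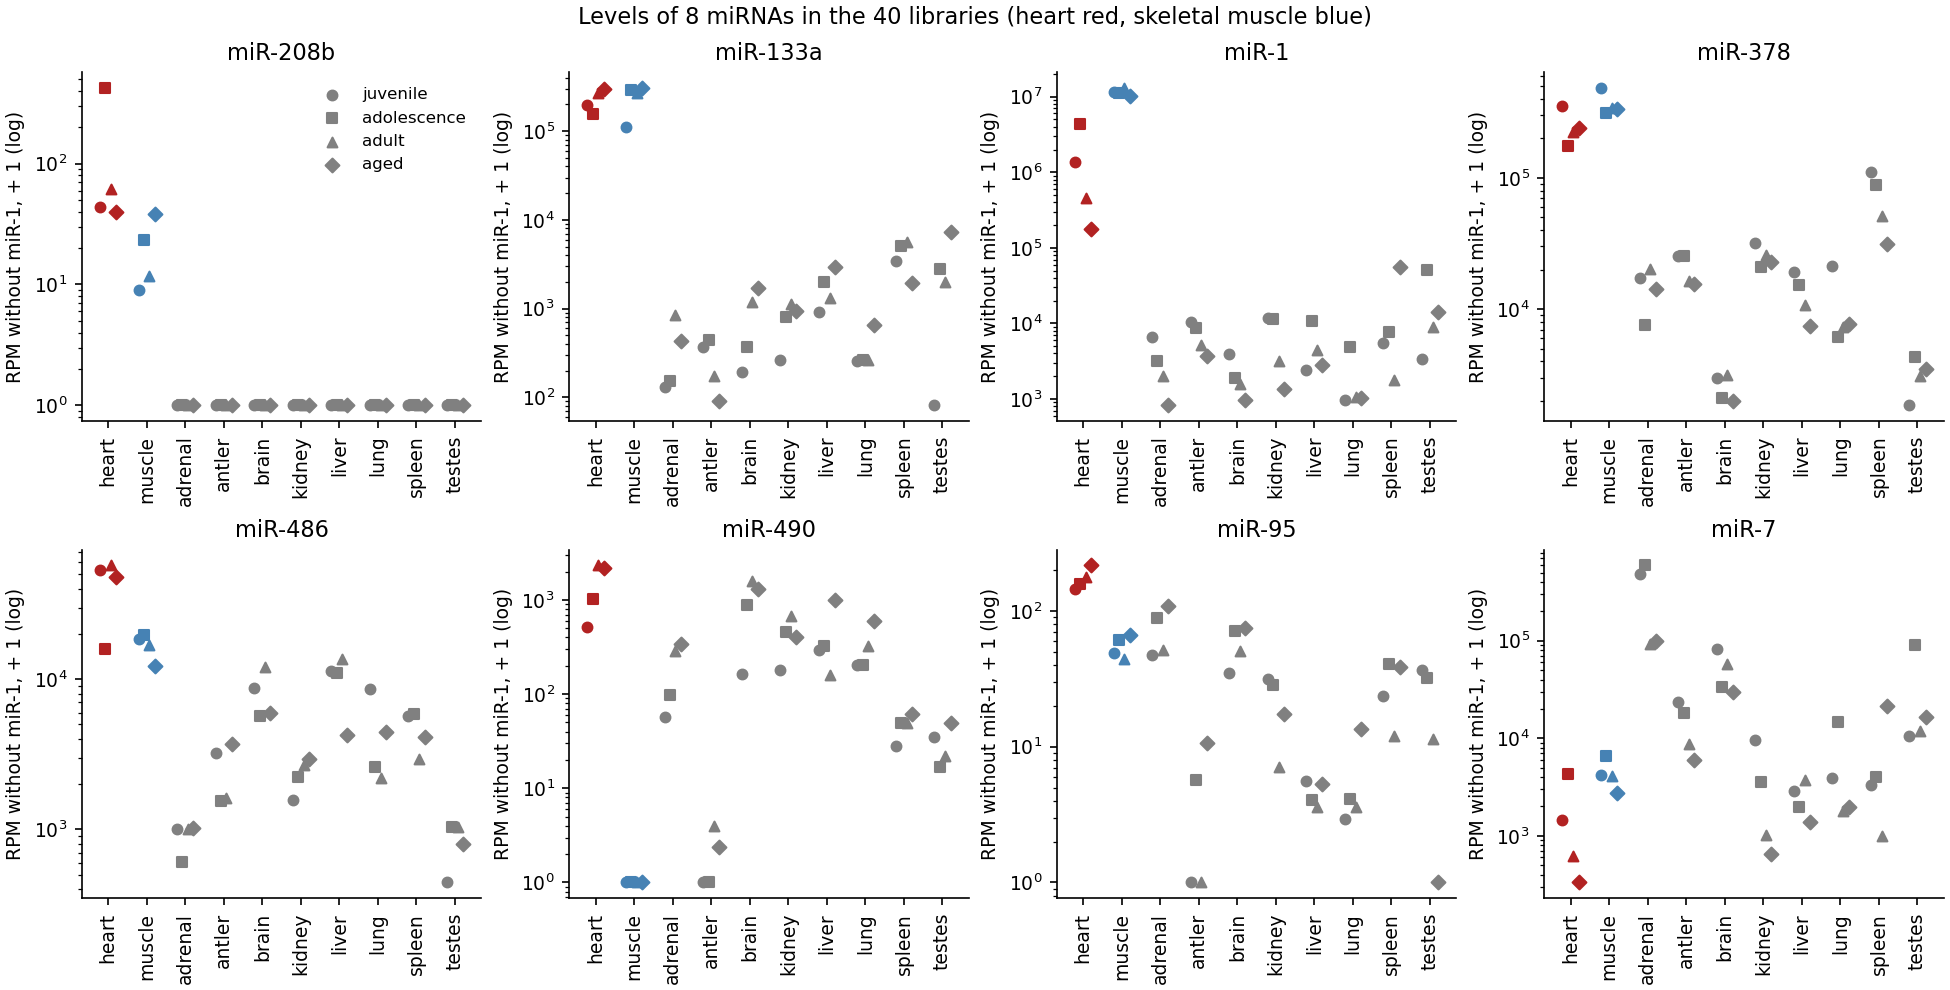
RPM without miR-1, plus 1, on a log axis for 8 miRNAs in each of the 40 libraries, by organ (x axis), with 1 point per library and the stage given by its shape. Heart (red) is above the 32 libraries of the other 8 organs (grey) for miR-208b, miR-133a, miR-1, miR-378, miR-486 and miR-95, skeletal muscle (blue) is at 0 reads for miR-490, and miR-7 is lower in heart than in adrenal and brain at each stage.

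Which miRNAs set heart apart from the other organs was tested in 1 limma model of organ and stage over 40 libraries, on log2(RPM + 1) after TMM scaling, with heart set against the mean of the other 9 organs. A miRNA counted as called where the Benjamini-Hochberg adjusted p was under 0.01 and heart differed by more than 1 on the log2 scale. Of 126 miRNAs, 34 were called (27.0%), 15 higher in heart (11.9%) and 19 lower (15.1%), and the median log2 difference over all 126 was -0.47. The split moved with the scaling. It was 11 higher and 55 lower on the total of miRNA reads (median -1.35), 15 and 30 on the total without miR-1 (median -0.78), and 19 and 17 with DESeq2 (median -0.24). Of the 34, 10 higher and 16 lower were called in the same direction under all 4. Leaving out the 10 juvenile libraries left 17 higher and 4 lower. Without the adolescence heart there were 16 higher and 21 lower, and without skeletal muscle 19 and 16.

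The miRNAs of muscle fibres were furthest above the other organs. All 6 tested members of the striated muscle list were higher (miR-1, miR-133a, miR-133b, miR-133c, miR-208b and miR-486), with a list median of log2 6.64. Of all tested miRNAs 11.9% were higher. miR-133a had the largest difference (limma log2 7.69, SE 0.50, adjusted p = 1.40e-14). miR-133c, a relative of miR-133a that may share its reads, followed (log2 7.46, SE 0.46, adjusted p = 6.50e-15) from 1580, 7782, 3358 and 1527 RPM without miR-1. miR-133b stood at 3552, 2083, 3926 and 2611 RPM without miR-1, and its highest value outside heart and muscle was 169.6, so it did not overlap those organs (log2 6.55, SE 0.50, adjusted p = 9.58e-13). miR-1 stood at 577640, 814910, 316406 and 151290 RPM, or 1367650, 4402787, 462858 and 178258 RPM without miR-1 (log2 6.73, SE 0.62, adjusted p = 6.40e-11). miR-208b was called in limma (log2 5.64, SE 0.34, adjusted p = 6.31e-15) and not with DESeq2 (adjusted p = 0.192), and over 32 libraries at 0 reads its fitted value depends on the pseudocount. It passed the minimum of reads only with its heart libraries counted, which held 47, 200, 63 and 30 reads. Its call, and its place among the 6, are therefore no separate support beside those reads.

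miR-486, made from an intron of the ankyrin gene ANK1 and known in muscle and red blood cells, stood at 53698, 15862, 57360 and 47920 RPM without miR-1 in heart. The adolescence heart was the low one, and it lay inside the range of muscle, 18531, 19568, 16883 and 12165. All 4 heart libraries were above the other 32, whose highest was 13737 (limma log2 3.83, SE 0.32, adjusted p = 8.79e-12). On RPM heart stood at 22680, 2936, 39211 and 40670. There the adolescence heart was below every library of liver (4248 to 13677), brain (5711 to 12027) and spleen (2943 to 5800). It was above every library of muscle, which reached 1608, and of testes, which reached 1031. The red cell miRNA miR-451 had 0, 1, 0 and 0 heart reads. It was also near the floor in other organs, with 0, 0, 0 and 2 reads in spleen and 0 in muscle. The part of red blood cells in the miR-486 level was not tested.

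In the miR-378 family 4 of 4 members were called higher, where 11.9% of all tested miRNAs were higher, with a median of log2 3.49. miR-378 stood at 352718, 174176, 224130 and 239486 RPM without miR-1 in heart and at most 110823 in the 32 libraries outside heart and muscle, in the juvenile spleen (log2 4.13, SE 0.27, adjusted p = 1.40e-14). miR-378b, at 1205, 604, 555 and 1066, was also above those 32 (log2 4.67, SE 0.48, adjusted p = 7.52e-10). miR-378c at 6884, 4570, 6838 and 7506 and miR-378d at 365, 169, 339 and 331 overlapped the juvenile and adolescence spleen (log2 2.85, SE 0.28, adjusted p = 1.95e-10 and log2 2.67, SE 0.43, adjusted p = 5.94e-06). On RPM the adolescence heart, at 32238 for miR-378 and 112 for miR-378b, was below spleen, which reached 110223 and 209. The related names may share reads, and how the authors divided such reads is not given in the sources used here.

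On RPM without miR-1, miR-490 and miR-95 were higher in heart than in every other organ mean. miR-490, which in other mammals lies in an intron of the muscarinic receptor gene CHRM2, stood at 514, 1013, 2329 and 2174 RPM without miR-1, with adult and aged heart above juvenile and adolescence heart. The brain came next with a mean of 989.9 and reached 1604 in the adult, so the ranges overlapped (limma log2 4.80, SE 0.41, adjusted p = 1.21e-11). Within each stage the heart library was the highest of the 10 on RPM without miR-1. This did not hold on RPM, at 217, 188, 1592 and 1845 in heart. There the adult brain reached 1601, and every lung library was at 203 or more. miR-95 stood at 144, 156, 176 and 216 RPM without miR-1 on 157, 74, 183 and 166 reads. It was above all other 36 libraries, which reached 108 in the aged adrenal (log2 3.65, SE 0.50, adjusted p = 3.15e-07). On RPM without miR-1, miR-208b and miR-95 were the 2 tested names (1.59% of 126) whose 4 heart libraries were above all 36 others. By the same measure 9 (7.14%) were above the 32 outside muscle. With miR-1 in the total, the adolescence heart had 28.9 RPM of miR-95, below the brain, which reached 73.7.

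The remaining 3 of the 15 differences were smaller. miR-30c, one of the most abundant miRNAs of heart, stood at 26627, 108605, 149982 and 64030 RPM without miR-1, on both sides of the kidney mean of 98859 (log2 1.71, SE 0.38, adjusted p = 4.69e-04). miR-22-5p stood at 491, 1300, 1189 and 834, inside the range of adrenal and testes (log2 1.58, SE 0.36, adjusted p = 5.20e-04) and miR-1468 at 58.7, 57.0, 94.3 and 39.0, below the highest lung libraries (log2 2.50, SE 0.54, adjusted p = 3.34e-04). On the total of miRNA reads the 3 were not called, with log2 0.67, 0.54 and 1.63. The counts that follow are on RPM without miR-1 and are not given on RPM. Of the 15 miRNAs, 13 were above the mean of the other organs at 4 of 4 stages. The exceptions were miR-1 (2 of 4, with muscle in the mean) and miR-30c (3 of 4). Heart ranked first of 10 organ means for 5 of the 15 and second for 10, and skeletal muscle was the highest other organ for 10.

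**Figure D3:**
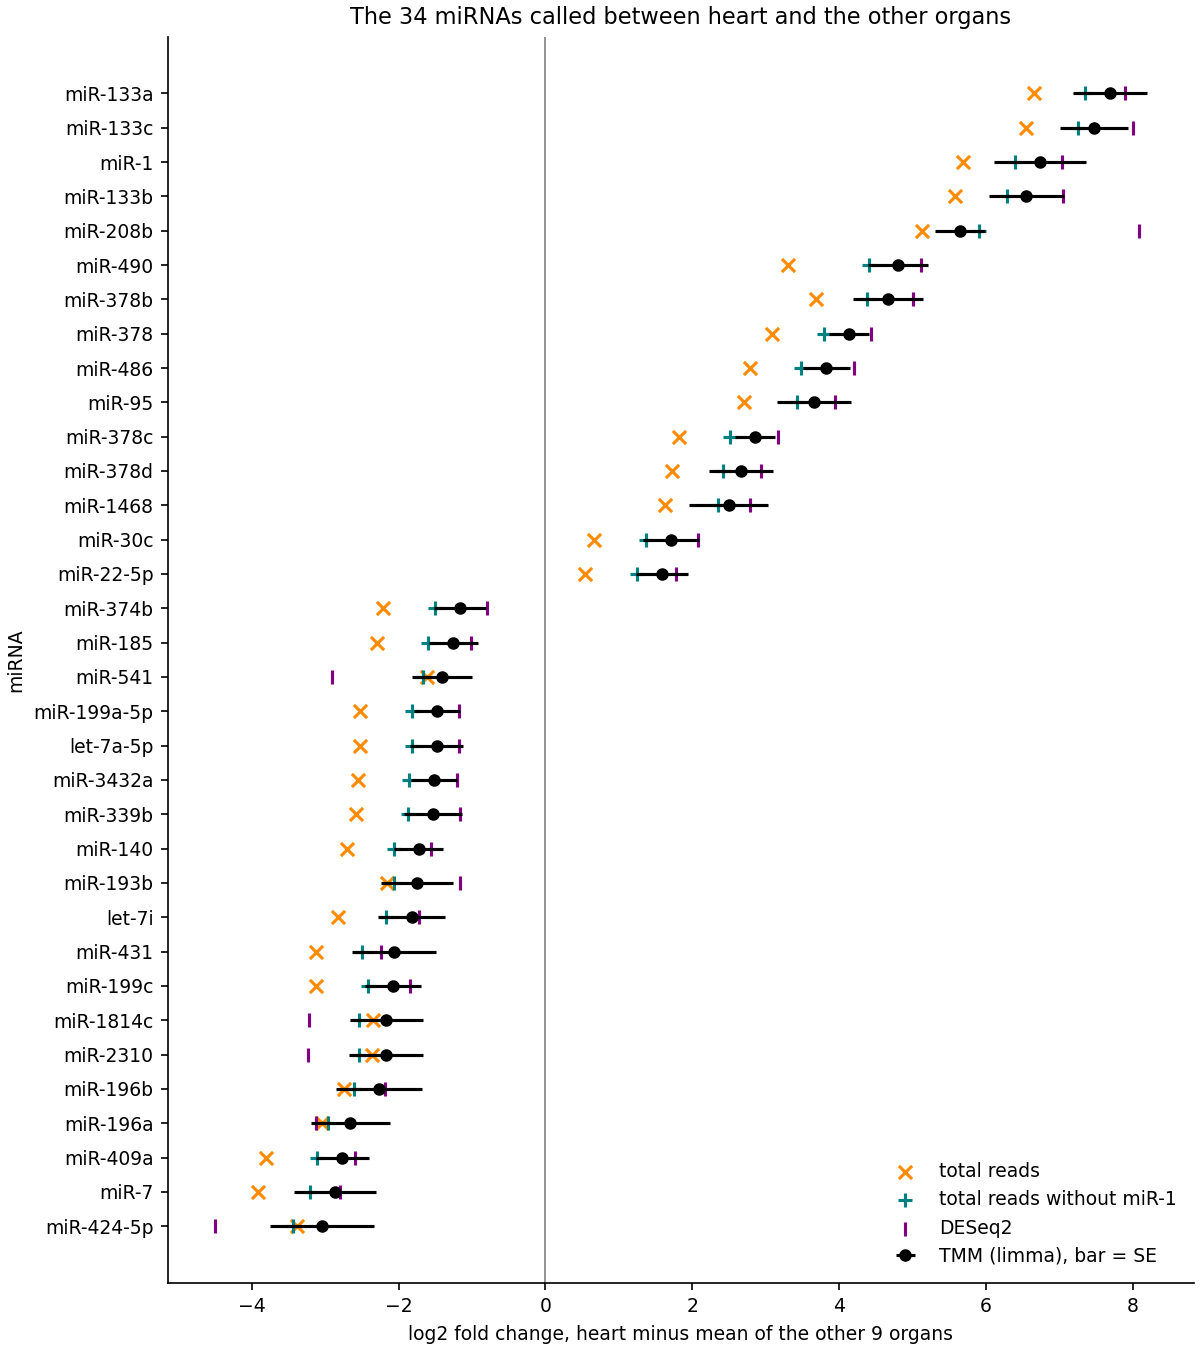
Log2 fold change (x axis) of heart against the mean of the other 9 organs for the 34 called miRNAs (y axis), with limma after TMM scaling (black points, bars are the standard error over 40 libraries) and under 3 other scalings (crosses and ticks). The values run from log2 -3.04 for miR-424-5p to 7.69 for miR-133a, and the total of miRNA reads moves most of them down.

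Leaving miR-1 out of the total lowered the ratio of heart to the other organs for miR-1, the miR-133 names, miR-208b and miR-378, and raised it for miR-486, miR-490, miR-95 and miR-30c. The mean of heart over the mean of the other 9 organs for miR-133a was 39.7 times with miR-1 in the total and 8.13 times without it. For miR-133b it was 15.4 times with miR-1 in the total and 3.07 times without it, and for miR-208b 234 times with miR-1 in the total and 64.9 times without it. These names are shared with muscle, whose values rise by 11.2 to 14.0 times when miR-1 is left out. For miR-378 it was 6.40 times with miR-1 in the total and 4.23 times without it. The ratio of the other 4 names went up. For miR-486 it was 6.76 times with miR-1 in the total and 7.75 times without it. For miR-490 it was 3.52 times with miR-1 in the total and 5.50 times without it, for miR-95 4.16 times with miR-1 in the total and 5.90 times without it and for miR-30c 1.30 times with miR-1 in the total and 2.28 times without it. miR-1 itself was 4.27 times with miR-1 in the total and 1.25 times without it. Without the adolescence heart, the values without miR-1 in the total were 0.523 times for miR-1, which turned below the other organs, and 21.9 times for miR-208b. Without the adult heart, miR-30c turned to 0.792 times with miR-1 in the total.

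On RPM without miR-1, the 19 miRNAs called lower in heart were below the mean of the other organs at 4 of 4 stages. Heart had the lowest of the 10 organ means for 10 of them on that scale. miR-7, a miRNA of nerve and hormone-making cells, was one of these. It stood at 1446, 4257, 622 and 332 RPM without miR-1 in heart against 648 to 592387 in the other 36 libraries (median 7595), with the highest level in adrenal (limma log2 -2.87, SE 0.56, adjusted p = 9.82e-05). The ranges overlapped, and the adult and aged hearts were below all other libraries.

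The imprinted DLK1-DIO3 cluster holds many miRNAs of brain and adrenal. Of its 8 tested members 3 were called lower, none higher and 5 were not called, where 15.1% of all tested miRNAs were lower, with a median of log2 -1.47 beside -0.47 over all tested. miR-409a stood at 203, 88.7, 73.1 and 27.3 RPM without miR-1 in heart and 12214 in adrenal on average (log2 -2.77, SE 0.36, adjusted p = 1.46e-07). miR-431 had 14, 3, 2 and 4 reads in heart (log2 -2.07, SE 0.57, adjusted p = 0.00384). miR-541 had no heart read, and its highest level elsewhere was 39.6 RPM without miR-1 in the aged adrenal.

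Of the let-7 family, which acts late in development and in differentiated tissue, 7 members were tested and 2 were lower, where 15.1% of all tested miRNAs were lower, with a median of log2 -0.82 beside -0.47 over all tested. The 7 include let-7b and miR-3596, which carry the same reads and are 1 observation. let-7a-5p stood at 1739, 937, 1336 and 3325 RPM without miR-1 and had its lowest organ mean in heart (log2 -1.48, SE 0.36, adjusted p = 0.00125). let-7i stood at 29.3, 29.6, 16.4 and 23.4 (log2 -1.82, SE 0.46, adjusted p = 0.00173). let-7b, the most abundant member in heart at 70086, 36330, 52245 and 111493, was not called (log2 -0.53, SE 0.48, adjusted p = 0.434).

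Of the 7 tested miRNAs of fibroblasts and matrix, 2 were lower, miR-199a-5p at 2758, 7001, 3093 and 3174 RPM without miR-1 (log2 -1.48, SE 0.31, adjusted p = 2.55e-04) and miR-199c at 136, 217, 169 and 97.6 (log2 -2.08, SE 0.38, adjusted p = 4.29e-05). Both had their highest organ mean in antler. The other 5 were not called, where 15.1% of all tested miRNAs were lower. The group had a median of log2 -1.01 beside the same -0.47. Of these 5, miR-199a-3p and miR-3604 carry nearly the same reads and are 1 observation. miR-140, a cartilage miRNA, stood at 11, 23.2, 14.4 and 16.9 in heart and also peaked in antler (log2 -1.72, SE 0.34, adjusted p = 9.86e-05).

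Several of the most abundant heart miRNAs did not pass the test against the other organs. miR-199a-3p, a miRNA of mesenchymal cells, stood at 11603, 27766, 10386 and 6040 RPM without miR-1 (limma log2 -1.01, SE 0.33, adjusted p = 0.0143). miR-26a, known as a brake on growth, stood at 60846, 130290, 19113 and 8028, with its highest organ mean in lung (log2 0.36, SE 0.75, adjusted p = 0.752). miR-22-3p, which takes part in the growth of heart muscle cells, stood at 2966, 21685, 9805 and 6434 (log2 0.82, SE 0.41, adjusted p = 0.106), while miR-22-5p from the other arm of its hairpin was called. On RPM without miR-1, heart had the highest of the 10 organ means for 6 of the 126 tested names. The one of them that was not called was miR-1306. Heart had the lowest mean for 17, of which 10 were called.

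Of the 19, 5 rested on under 10 heart reads in all. miR-196a, which lies in the HOX gene clusters that pattern the body axis, had 0, 2, 1 and 1 heart reads and a mean of 1121 RPM without miR-1 in kidney (log2 -2.66, SE 0.54, adjusted p = 1.57e-04). miR-424-5p, of the miR-15 family that slows the cell cycle, had 1, 0, 0 and 0 heart reads and a mean of 1734 in testes (log2 -3.04, SE 0.71, adjusted p = 7.23e-04). The names miR-1814c and miR-2310 carried the same 0, 0, 0 and 2 heart reads and are 1 observation, and miR-541 was the fifth. miR-193b, which has a role in brown fat and muscle, had 0, 1, 10 and 5 heart reads, and miR-339b stood at 79.8, 179, 1023 and 429.6 RPM without miR-1. With miR-196b, miR-3432a, miR-185 and miR-374b they had log2 values from -2.27 to -1.16.

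No tested member of the blood cell, neural, liver and gut, epithelial, fibroblast and matrix, smooth muscle or endothelium list was called higher in heart. miR-486, known also in red blood cells, was kept in the striated muscle list and was called higher. miR-122, miR-223, miR-155, miR-144, miR-9, miR-200a, miR-200c and miR-141 were not analysed here. The blood cell list summed to 27.3 to 86.5 RPM without miR-1 in heart and 11.2 to 3120 elsewhere, with the top in the aged spleen, and its 2 tested members were not called (median log2 -0.98). The neural list summed to 332 to 4257 in heart, nearly all of it miR-7, and its nerve cell marker miR-124a had 11, 0, 6 and 0 reads. Of its 2 tested members 1 was lower, miR-7, where 15.1% of all tested miRNAs were lower. The liver and gut list, led by miR-192, summed to 339.7 to 2094 in heart and 73.4 to 274290 elsewhere, and its 2 tested members were not called. The epithelial list summed to 0 to 2.60 in heart and 0 to 73.7 elsewhere, with no member tested. The fibroblast and matrix list, with the shared reads of miR-199a-3p and miR-3604 counted under both names, summed to 16152 to 63195 in heart and 1411 to 779461 elsewhere. miR-145 of smooth muscle, which heart holds in its vessels, stood at 23357, 33233, 31256 and 21908 in heart, below the spleen mean of 165457, and was not called (limma log2 0.12, SE 0.27, adjusted p = 0.760). The endothelial miR-126-3p had 2, 7, 15 and 6 heart reads and was not called. It was also low elsewhere, at 0 to 74.4 RPM without miR-1 with the top in the adolescence kidney, so its level says little about endothelial cells. The part of these cells in the heart profile was not tested. Of the 4 tested miRNAs of the cell cycle list 1 was lower (miR-424-5p, on 1 heart read in all), where 15.1% of all tested were lower. Of the miR-30 family 1 of 4 was higher (miR-30c), where 11.9% of all tested were higher. Counts of 1 in 4 are not read as a result about these lists. Neither of the 2 names of miR-26, which carry the same reads, was called. Both tested miRNAs of the heart markers (miR-208b and miR-133a) and both of the list of cardiac host genes (miR-208b and miR-490) were higher. miR-208b is counted in both lists, and it passed the minimum of reads only with its heart libraries counted.

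Heart was then set against skeletal muscle, the other striated muscle of the series. The same limma model called 24 of 126 miRNAs (19.0%), 4 higher in heart (3.17%) and 20 lower (15.9%), with a median log2 of -0.58. This split moved with the scaling, and miR-1 was 91.1 to 92.8% of muscle reads. It was 57 higher and 2 lower on the total of miRNA reads (median 1.93), 9 and 5 without miR-1 (median 0.12), and 10 and 12 with DESeq2 (median -0.14). Without the adolescence heart it was 4 and 26, without the juvenile, adult or aged heart 2 and 8, 3 and 11, and 3 and 12. Leaving out the juvenile libraries of all organs gave 5 and 3, the adult ones 2 and 4 and the aged ones 4 and 5. No more than 6 miRNAs were called in the same direction under all 4 scalings, 4 higher in heart and 2 lower.

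miR-490 had 560, 480, 2421 and 1670 reads in heart and none in the 4 muscle libraries. Heart was at least 1052-fold above muscle, against a limit of 3 reads over the muscle libraries without miR-1. Without the adult heart the value was 803-fold. miR-30f stood at 3185, 6672, 19811 and 9405 RPM without miR-1 in heart and 527, 786, 603 and 472 in muscle, with no overlap (limma log2 2.73, SE 0.60, adjusted p = 0.00122). miR-1343-3p stood at 673, 127, 1051 and 1099 in heart and 44.8, 51.3, 28.0 and 18.6 in muscle (log2 3.03, SE 0.76, adjusted p = 0.00311). miR-677 stood at 29.3, 42.2, 18.3 and 49.5 and 11.2, 4.46, 2.15 and 0 (log2 2.32, SE 0.68, adjusted p = 0.00965). All 3 pairs of groups were apart. miR-196a and miR-196b went the other way. Muscle held 480, 59, 313 and 792 reads of miR-196a, where heart held 0, 2, 1 and 1 (log2 -8.90, SE 0.72, adjusted p = 8.78e-12), and 292, 116, 239 and 541 of miR-196b, where heart held 1, 1, 2 and 10 (log2 -7.95, SE 0.78, adjusted p = 8.74e-10).

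The heart myosin miRNA miR-208b was not called against muscle under TMM (log2 1.25, SE 0.46, adjusted p = 0.0354), was called on both totals (log2 3.98 with and 2.23 without miR-1) and was not called with DESeq2 (adjusted p = 0.832). For the other called names, such as miR-378 and miR-378c, the direction or the call depended on the total. By list, 2 of 6 striated muscle miRNAs (miR-1 and miR-133b) and 3 of 4 of the miR-378 family were lower under TMM. So were 4 of 7 of fibroblasts and matrix, where 15.9% of all tested miRNAs were lower. None of these was called lower under all 4 scalings. The 4 of fibroblasts and matrix include miR-199a-3p and miR-3604, which carry nearly the same reads and are 1 observation. miR-1 was lower than in muscle under TMM (log2 -4.79, SE 0.83, adjusted p = 5.16e-05), without miR-1 in the total and with DESeq2, and on the total of miRNA reads it had log2 -1.25 (adjusted p = 0.166). Ratios of 2 miRNAs of 1 library do not depend on it. Of 5 such ratios, chosen after the values had been seen, 3 did not overlap between the organs.

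There were 6.88, 27.9, 1.71 and 0.599 reads of miR-1 per read of miR-133a in juvenile, adolescence, adult and aged heart and 103, 38.5, 48.1 and 33.5 in muscle. All 4 heart values were below all muscle values, by 13.4 times in the geometric mean. For miR-133b per read of miR-133a the values were 0.0179, 0.0132, 0.0145 and 0.00878 in heart and 0.0413, 0.0362, 0.0393 and 0.0288 in muscle, 2.74 times higher in muscle. For miR-378c per read of miR-378 they were 0.0195, 0.0262, 0.0305 and 0.0313 and 0.0564, 0.0639, 0.0631 and 0.0816, 2.48 times higher in muscle. At each stage the 3 deer that gave the heart also gave the muscle, so the 4 pairs were tested by exact sign flips. Each of the 3 ratios was lower in heart in 4 of 4 pairs, with the smallest p this two-sided exact permutation test allows (p = 0.125, adjusted over 5 ratios 0.208), so no ratio could pass 0.05. The ratios of miR-133c and of miR-378 to miR-133a overlapped (exact permutation p = 0.625 and 0.250). The 13.4 times of miR-1 to miR-133a became 28.6 without the adolescence pair and 8.35 without the aged pair.

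**Figure D4:**
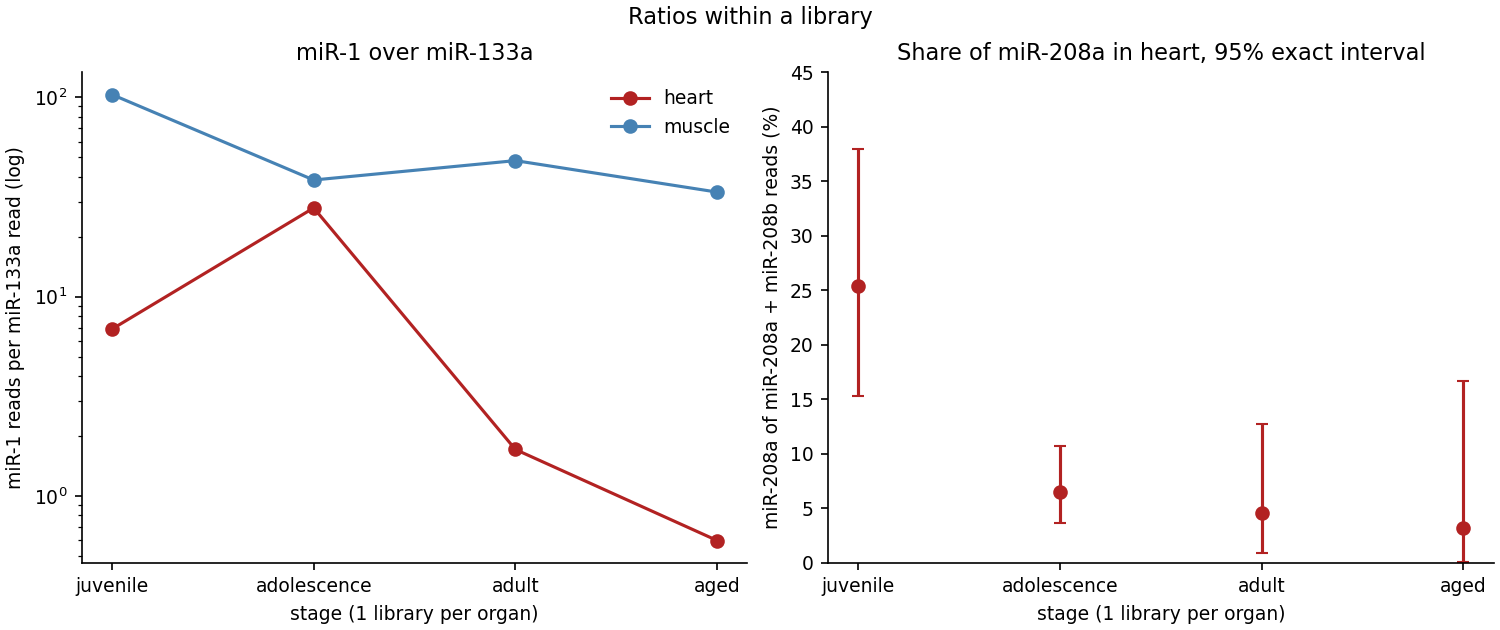
Left, reads of miR-1 per read of miR-133a (log axis) at the 4 stages in heart (red) and skeletal muscle (blue), 1 library per point. Right, the share (%) of miR-208a among the reads of miR-208a and miR-208b in heart, with 95% exact binomial intervals, which is 25.4% in the juvenile and 3.23% in the aged heart.

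Within heart the ratio of miR-1 to miR-133a was highest in adolescence and lowest in the aged. In muscle it stayed at 33.5 or above. The share of miR-208a among reads of both miR-208 forms was 25.4% in the juvenile heart (16 of 63 reads, 95% Clopper-Pearson interval 15.3 to 37.9%). It was 6.54% in adolescence (3.62 to 10.7%), 4.54% in the adult (0.947 to 12.7%) and 3.23% in the aged heart (0.0816 to 16.7%). The juvenile interval did not overlap that of adolescence or the adult and overlapped that of the aged heart, which rests on 31 reads. The comparison is between single libraries, not between stages with replicates.

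The course over the stages was followed in the 75 names with at least 100 heart reads, as a description of 4 libraries. On RPM, 54 of them were at least 2 times higher in adult than in adolescence heart and 2 at most 0.5 times as high, with a median ratio of 4.17. Without miR-1 in the total the same step had 22 up and 20 down, with a median of 1.13. From juvenile to adolescence the counts were 9 up and 38 down on RPM, and 29 and 19 without miR-1. From adult to aged they were 12 and 8, and 9 and 21. Written as up (U), maintained (M) or down (D) at the 3 steps, DUM was the most frequent course on RPM (23 of 75) and UDM without miR-1 (13), and MMM held for 11 names on RPM and for 11 without miR-1, none of them the same. After TMM scaling, which the tests use, the steps were 35 up and 13 down from juvenile to adolescence, 13 and 35 from adolescence to adult (median 0.566) and 14 and 3 from adult to aged, so the balance of up and down at a step depended on the scaling.

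Among the abundant miRNAs of heart some varied little once miR-1 was left out of the total and others varied on either total. Without miR-1 in the total, miR-133a varied 1.88 times between its highest and lowest stage, miR-378 2.02 times, miR-378c 1.64 times and miR-145 1.52 times. miR-486 varied 3.62 times and miR-1 24.7 times. For the first 4 the spans on RPM were 8.64, 6.30, 7.53 and 3.47. miR-26a stood at 25699, 24115, 13066 and 6813 RPM, beside the values without miR-1 above, so both older hearts were below both younger ones on either total. miR-7 took a similar course on either total, at 611, 788, 425 and 282 RPM. let-7b was highest in the aged heart on either total, at 29601, 6724, 35714 and 94625 RPM. miR-30f, miR-339a and miR-490 were also higher in both older hearts on either total, with miR-339a at 649, 1442, 6827 and 2652 RPM without miR-1. For miR-22-3p the order turned. Adolescence was highest without miR-1 (2966, 21685, 9805 and 6434) and the adult was highest on RPM (1253, 4014, 6703 and 5461).

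**Figure D5:**
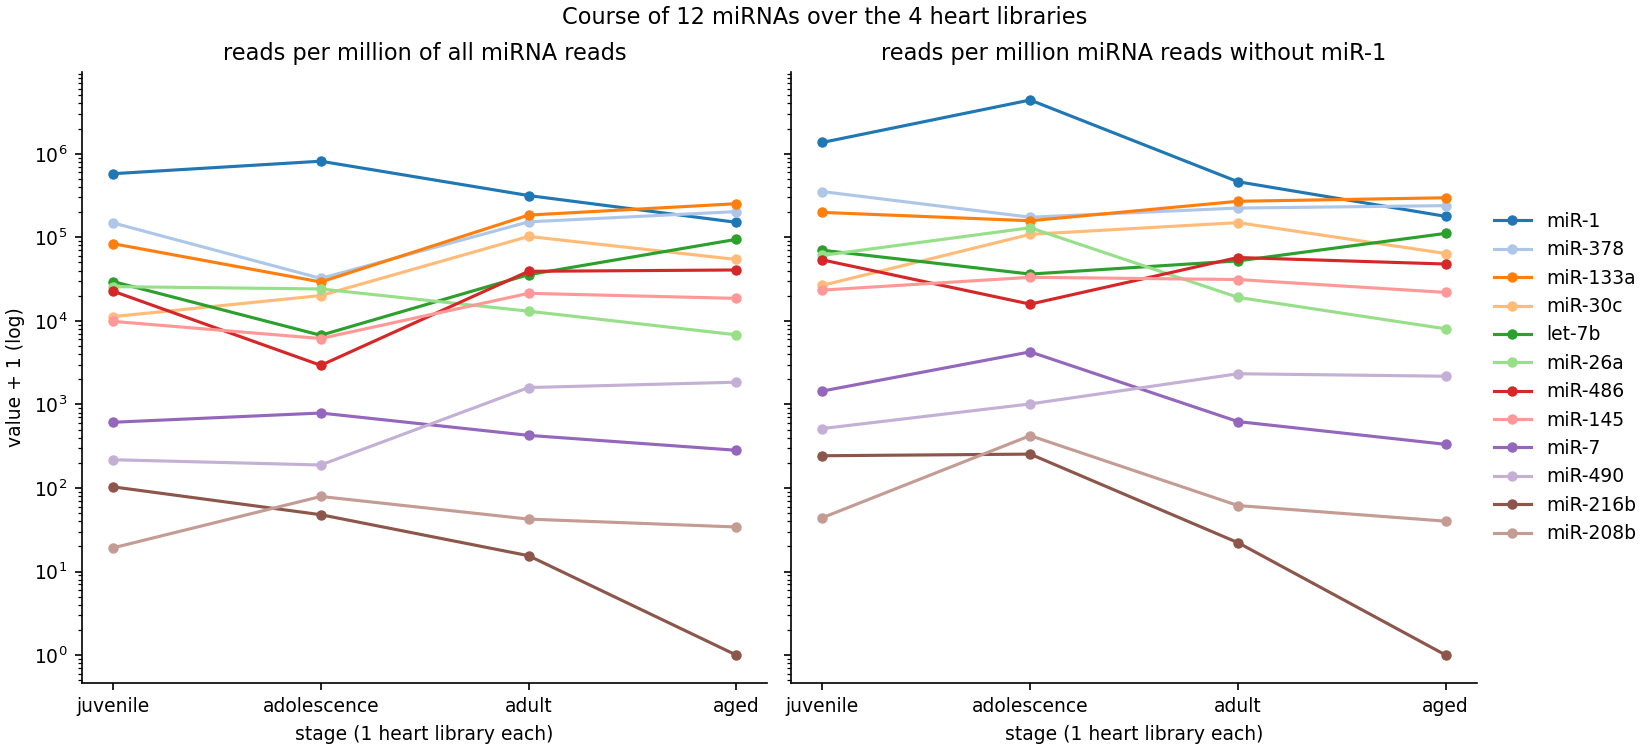
Course of 12 miRNAs over the 4 heart libraries on a log axis (value plus 1), in RPM (left) and in RPM without miR-1 (right), 1 point per library and no error bar. The dip of miR-378, miR-133a, miR-486 and let-7b in adolescence is deeper on the left, and miR-26a, miR-7 and miR-216b are lower in both older hearts on both sides.

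The study compares heart before and after maturity, so adult and aged heart were tested against juvenile and adolescence heart in limma, with organ and maturity within each organ as terms. The spread comes from pairs of stages in all 10 organs. Of 126 miRNAs 1 was called (0.794%), miR-216b, and 20 had an unadjusted p below 0.05. miR-216b, a miRNA of the pancreas in other mammals, had 264, 120, 22 and 0 reads in juvenile, adolescence, adult and aged heart, or 242, 253, 21.2 and 0 RPM without miR-1. Both older hearts were below both younger ones (limma log2 -6.18, SE 1.22, adjusted p = 0.00457). The call held with DESeq2 (adjusted p = 0.00480) and not on the total of miRNA reads (adjusted p = 0.0335), on the total without miR-1 (adjusted p = 0.0420) or with edgeR (adjusted p = 0.0699). Without the juvenile heart, the adolescence heart or the aged heart it was lost, with log2 -6.40, -6.01 and -4.27 and adjusted p = 0.0181, 0.0892 and 0.577 in limma, and the aged heart has no read of it.

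miR-1 had the next smallest p. Its difference of adult and aged against juvenile and adolescence heart was log2 -3.70 (SE 1.09, limma adjusted p = 0.0986), log2 -1.65 on the total of miRNA reads and -3.09 without miR-1. It was not called under any of the 29 alternatives. The same test gave log2 -3.05, SE 0.95, adjusted p = 0.0986 for miR-7, log2 -2.05, SE 0.66, adjusted p = 0.0986 for miR-208b and log2 -3.45, SE 1.35, adjusted p = 0.168 for miR-26a. miR-216b is in none of the lists, and no member of a list was called. The median log2 over all 126 miRNAs was -0.59, 1.03 on the total of miRNA reads and -0.05 without miR-1. On the total of miRNA reads 8 miRNAs were called, all higher in adult and aged heart.

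Whether these differences were those of the whole deer was tested as the heart difference minus the mean difference of the other 9 organs. Only miR-216b was called (1 of 126, 0.794%, log2 -6.39, SE 1.29, adjusted p = 0.00583), and 10 miRNAs had an unadjusted p below 0.05. Liver went the opposite way, with 40, 169, 667 and 581 reads of miR-216b over the stages. The call was not made with DESeq2 (adjusted p = 0.0170), on the total of miRNA reads (adjusted p = 0.0266) or without miR-1 (adjusted p = 0.0343). For miR-1 the value was log2 -2.76 (limma adjusted p = 0.446). The share of miR-1 was lower on average in adult and aged than in juvenile and adolescence libraries in 7 of the other 9 organs, and in adrenal, antler, brain and kidney both older libraries were below both younger ones, as in heart. The same deer gave all organs of a stage, and the part of the deer in the heart course cannot be told apart from that of the stage.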

How the data were processed

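Small RNA was sequenced from 40 pools of 3 deer, and the 4 heart libraries are described. The labels name a NEBNext small RNA kit and the methods of the study a TruSeq kit. The authors removed adapters and other classes of RNA, matched reads to miRBase 22.0, predicted further miRNAs with miRDeep 2.0.5, and deposited RPM values (reads per 1000000 miRNA reads). The submitters' notes name CASAVA, bcl2fastq 1.8.4 and Bowtie, and the column header reads tpm. All 7982 deposited values were within 0.01 of whole reads, so reads were recovered. The largest distance was 0.000243.

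The members, lists and tests were chosen with earlier results of these data known. RPM was scaled by TMM (edgeR 4.0.16), as log2(RPM + 1), and fitted with limma 3.58.1 in R 4.3.3 to names that reached 10 reads in 4 or more libraries. TMM factors were 0.151 to 1.11 in heart and 0.0291 to 0.0746 in muscle, whose reads are mostly miR-1, and calls are given under 4 scalings. The stage number marks the same deer in all organs and was a block in the organ comparisons. Over 126 miRNAs the deviations of a heart library from the heart mean correlated with the mean deviations of the other organs of its stage at r = 0.272 to 0.484. The antler name miR-148c was merged with miR-2957 of the other organs. In 7 pairs of names, such as let-7b and miR-3596, both carry the same reads within 1%, and the totals count both. The text names members of 16 lists (heart markers, striated muscle, miR-378, miR-30, let-7 and miR-26 families, smooth muscle, endothelium, fibroblast and matrix, blood cells, neural, liver and gut, epithelial, imprinted cluster, cell cycle, cardiac genes as hosts), up to 15 called miRNAs with the largest rise and fall, and for the course names at 1000 RPM without miR-1 in 1 heart library. Alternatives were DESeq2 1.42.0 and the edgeR quasi-likelihood test on recovered reads, other totals, pseudocounts of 0.5 and 10, no minimum of reads, merged names, names as listed, no stage block, a slope over stages, and each stage, heart library or organ left out. The paired test of ratios and the folds without 1 heart library were chosen after seeing the data. The scripts were tested on simulated data. One read stood for 0.387 to 1.10 RPM in heart. Sequences of the miRNAs were not used here.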

Additional observations from a re-analysis of the deposited data

Results flagged for a closer look

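In 6 of 54 named miRNAs with at least 100 heart reads, 1 heart library lay far from the other 3 on log2(RPM without miR-1 + 1), measured as the gap to its neighbour over the whole range. Chance alone gives this in about 1 in 20 groups. They were, with that measure, let-7d (0.882, aged highest), miR-17-5p (0.865, adolescence highest), miR-199a-5p (0.849, adolescence highest), miR-378d (0.872, adolescence lowest), miR-486 (0.860, adolescence lowest) and miR-574 (0.889, adolescence lowest). In 5 of the 6 it was the adolescence heart, which also had the largest share of miR-1. Its part in these results was not tested.

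The fall of miR-216b in adult and aged heart differed from the mean change of the other 9 organs by log2 -6.39 (limma adjusted p = 0.00583) in a test of the difference itself. It was lower in 2 of 2 older hearts. The call of this difference was not made with DESeq2, with edgeR or on either total, and the aged heart had no read of miR-216b.

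Numbered miRNAs, which the authors predicted and which enter no comparison above, held up to 0.0949% of the miRNA reads in the aged heart and at least 0.0150% in a heart library, on 996, 383, 622 and 859 reads over the stages.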

How the results depend on the processing

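Beside the 34 called in heart against the other organs, the total of miRNA reads called 66. Leaving out a stage or a heart library gave 21 to 38 (lowest without the juvenile stage), other settings 25 to 45. Without the stage block, that is without the pairing by deer, 30 were called. Single called miRNAs kept direction in all alternatives run, and lost the call in 148 of 915. Against muscle (24 called), the counts were 59 on the total of miRNA reads, 14 without miR-1, 13 with no minimum of reads, 14 with merged names, 14 with names as listed, 16 without the block, 6 to 30 without a stage or heart library, and 12 or 13 without adrenal, antler, kidney, liver or testes. On the total of miRNA reads 13 of the 24 turned to higher in heart, at log2 1.05 (miR-133b), 1.20 (miR-140), 1.18 (miR-1839), 1.90 (miR-199a-3p), 1.93 (miR-199a-5p), 0.26 (miR-2898), 0.23 (miR-29a), 1.90 (miR-3604), 1.93 (miR-378), 0.62 (miR-378c), 1.03 (miR-378d), 1.52 (miR-409a) and 0.54 (miR-7). The construction of this total, of which miR-1 is most in muscle, moves all others alike.

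For adult and aged heart (1 called) the count was 8 on the total of miRNA reads, 0 without miR-1 and with edgeR, 2 with no minimum of reads and without spleen, 0 without adrenal, antler, kidney or testes, and 0 to 1 without a stage or heart library. miR-199a-3p turned to log2 0.27 on the total of miRNA reads. For the heart difference against the other organs (1 called) it was 0 on both totals, with DESeq2, with edgeR, with a pseudocount of 0.5 and without adrenal, kidney, lung, spleen or testes, 2 with no minimum of reads and 0 to 1 without a stage or heart library. With the stage block 1 was called in each. The block with the total without miR-1, an alternative chosen after seeing the data, gave 0 in each. The cause of these changes was not tested. miR-208a and miR-499 did not reach the minimum of reads and were not tested.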
